A study of Ovis aries with 16 samples.

Results

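The RNAs described here are the ribosomal RNAs encoded by the mitochondrial genome, 12S rRNA (ENSOARG00000000002) and 16S rRNA (ENSOARG00000000004), in the heart muscle of adult female sheep. They are 2 of the 27054 features of a gene expression table, and they were chosen by their gene IDs, not by their values. The table held 16 libraries of poly-A selected RNA from myocardium, in 4 groups of 4 biological replicates. Ewes carrying these animals were injected under the skin with the plasticiser bisphenol A (BPA) in corn oil, at 0.5 mg/kg per day between days 30 and 90 of gestation, or with corn oil alone. Daughters ate a control diet or were overfed from 14 weeks of age, and hearts were collected at 21 months. Under the control diet the daughters of oil-treated ewes are called control here and those of BPA-treated ewes BPA. The overfed daughters are called obese where the ewe had oil and ObBPA where it had BPA. All animals of all groups had been given prostaglandin F2α to bring on the follicular phase before collection. Libraries are numbered 0 to 3 within each group, as in the labels.

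Mitochondria carry a small circular genome and their own ribosomes. The 12S rRNA is the core of the small subunit, which reads the messenger RNA, and the 16S rRNA is the core of the large subunit, which forms the peptide bonds. Their genes lie side by side, separated by the gene of valine tRNA and flanked by those of phenylalanine and leucine tRNA, and are transcribed together from 1 strand into a long RNA from which the tRNAs are cut out. Heart muscle is rich in mitochondria, whose ribosomes make only subunits of the respiratory chain and of ATP synthase. Mature mitochondrial rRNAs carry no or short A tails, while most mitochondrial messenger RNAs carry longer ones, so selection for poly-A captures the rRNAs less well. The values below are levels after that selection.

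The table gave IDs without names. The rRNA names rest on the order of the IDs, whose first 37 members are taken to be the 37 mitochondrial genes in genome order. In the RefSeq gene table of assembly ARS-UI_Ramb_v3.0, which is not the build of the files (Oar_v3.1), the mitochondrial genome also held 37 genes, and its only rRNA genes were at places 2 and 4. The size of the values allowed a partial check of the 12S name, by its length. FPKM is a count of fragments divided by transcript length and by library size, so a feature's values are whole multiples of the value of 1 fragment. In the 12 libraries numbered 1 to 3 the relative size of this step could be read from features of low level, and the 12S values were whole multiples of 1 step to within 0.0741 fragments, against 0.217 for the next step that was not a multiple of it, among steps giving up to 20000 fragments in control library 1. A feature's number of fragments per unit of FPKM grows with its length. A straight line was drawn through the features at the places of COX2 (684 bases in the RefSeq table) and ND3 (346 bases) only. Extended beyond both, it put 12S at 959 bases, and the RefSeq table lists 958 bases for the rRNA gene at place 2. The same line put the feature at the place of ND4L at 300 bases, against 297 in the RefSeq table. ND1 is listed at 955 bases, so the length alone cannot tell 12S from ND1. For 16S, listed at 1574 bases, no single step stood out from the others at the 6 digits of the table, and its name was not checked in this way.

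Both rRNAs were present in every library and stood far below most mitochondrial messenger RNAs. The level of 12S ranged from 349 to 1014 FPKM over the 16 libraries, with a median of 579. The level of 16S ranged from 961 to 4350.2 FPKM, with a median of 1639.8. FPKM is per length of transcript, so levels of different genes can be set side by side if fragments were assigned to them alike, which was not tested. By library, 12S was the 164th to 380th most abundant feature of the table and 16S the 54th to 142nd. They took 0.0117% to 0.0241% and 0.0282% to 0.116% of the summed FPKM, whereas the 37 mitochondrial features together took 62.6% to 77.0%. Relative to the median of the 13 mitochondrial protein-coding features, 12S reached 2.81% to 5.79% and 16S 5.44% to 22.95%.

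The neighbours of the rRNA genes differed strongly from them. The tRNA features are named here by the gene order usual in mammals, since neither table names them. The phenylalanine tRNA feature before 12S (ENSOARG00000000001) was listed at 0 in all 16 libraries. The valine tRNA feature between the rRNAs (ENSOARG00000000003) was listed at 0 in 4 libraries and reached 1386 FPKM in BPA library 0. Because it is very short, few fragments give a high FPKM: in the 12 libraries numbered 1 to 3 its values were those of 0 to 2 fragments. The leucine tRNA feature just after 16S (ENSOARG00000000005) stood at 141890 to 342415 FPKM, 78.7 to 195 times the 16S level of the same library. ND1, a subunit of respiratory complex I and the next gene (ENSOARG00000000006), stood at 19323 to 34579 FPKM, 7.95 to 28.2 times the 16S level. Of the 13 protein-coding features, 9 had a median above that of 16S. The other 4 had a median below that of 12S and were those at the places of COX2, ATP8, ND3 and ND4L, with medians of 20.7, 0, 0.913 and 286 FPKM. The feature at the place of COX1 had a median of 88060 FPKM, and why these 4 lay so far below it was not tested. Of the 22 tRNA features, 14 had a median above 16S and 7 a median below 12S, 5 of them listed at 0 in every library. FPKM of features shorter than a sequenced fragment depends strongly on the length correction, so the tRNA values are less comparable with the rRNAs than those of messenger RNAs.

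**Figure D1:**
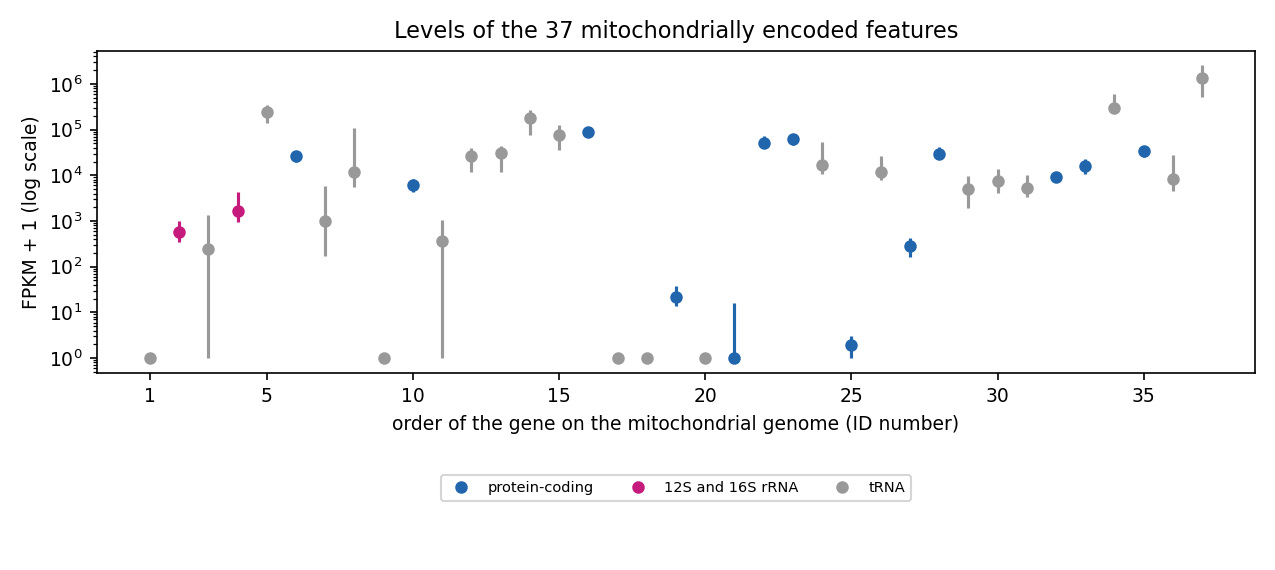
Levels (FPKM + 1, log scale) of the 37 mitochondrial features by their order on the genome, with points for the median and lines from the lowest to the highest of 16 libraries. The rRNAs at places 2 and 4, with medians of 579 and 1639.8 FPKM, lie below 9 of the 13 protein-coding features.

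In the small-subunit rRNA, 12S, the groups overlapped widely. Control libraries 0 to 3 had 546, 1014, 896 and 524 FPKM. BPA libraries 0 to 3 had 541, 975.1, 621 and 571 FPKM. Obese libraries 0 to 3 had 771, 587, 431 and 533 FPKM. The highest library of each of these groups lay above the lowest libraries of the other groups. ObBPA libraries 0 to 3 had 708, 349, 821 and 409 FPKM, which included the lowest value of the series. The order of the group means was control (745 ± 247 FPKM), BPA (677 ± 201), obese (580.4 ± 142) and ObBPA (572 ± 228; SD, n = 4 each). Each step between neighbours in this order was smaller than the SD of either group.

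In the large-subunit rRNA, 16S, 1 library of the BPA group and 1 of the control group stood apart from the others of their group. BPA libraries 0 to 3 had 4350.2, 1668, 1265 and 1279 FPKM, so that library 0 lay far above the others in its group. Control libraries 0 to 3 had 961, 1899.9, 1914 and 1789 FPKM, with library 0 far below the others of its group and the lowest of the series. Obese libraries 0 to 3 had 2004, 1285, 1137 and 1827 FPKM, and ObBPA libraries 0 to 3 had 1612, 1333, 2509 and 1509 FPKM. Neither of these last groups had a library set apart in this way, and their ranges overlapped. The order of the means was BPA (2140.4 ± 1485 FPKM), ObBPA (1741 ± 525), control (1641 ± 457) and obese (1563 ± 418; SD, n = 4 each), and each step was smaller than the SD of either group. Without library 0 of each group the order was control (1867 ± 68.4 FPKM), ObBPA (1784 ± 634), obese (1416 ± 363) and BPA (1404 ± 229; SD, n = 3 each). BPA thus had the highest mean of the 4 groups with its library 0 and the lowest without the libraries numbered 0.

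**Figure D2:**
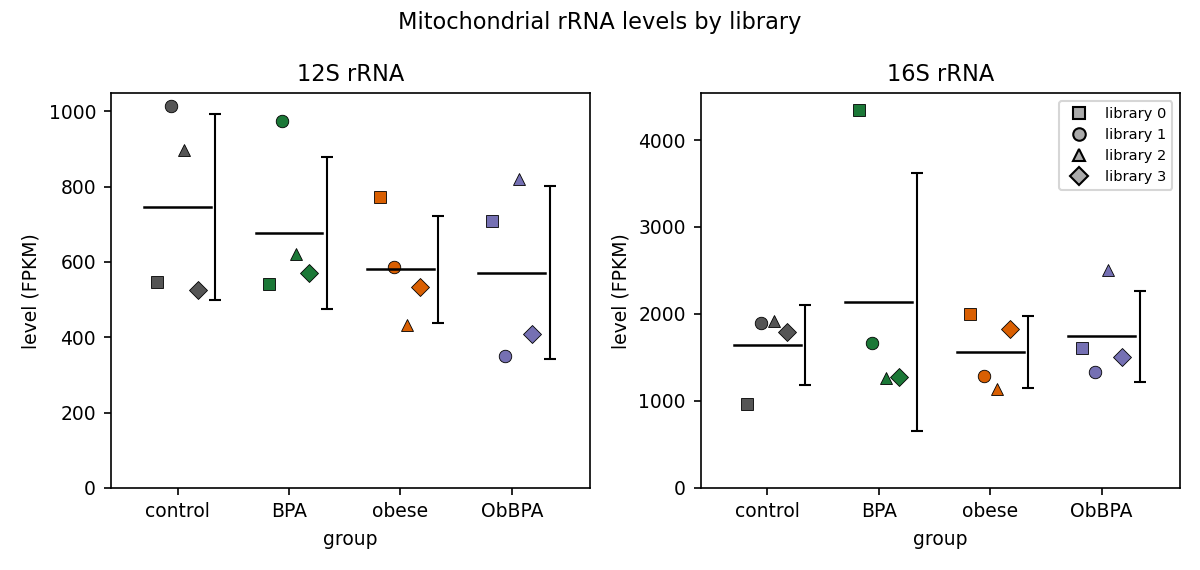
Levels of 12S and 16S rRNA (FPKM, linear axis from 0) in each of the 4 libraries of the 4 groups, with marker shape for the library number, a horizontal line for the mean and a bar for ± 1 SD. BPA library 0 has 4350.2 FPKM of 16S, and every other library lies between 961 and 2509.

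The libraries numbered 0 differed from the rest in the search for fragment steps. Each library was compared with control library 3. The common fragment step found in the other 12 libraries was not found in those numbered 0, at a tolerance of 0.01 on the log2 scale. The libraries numbered 0 were not compared with each other, so how their values were built is not known. Each group holds 1 of them. What sets them apart is not given in the labels, and its part in the rRNA values was not tested. Results are therefore given with all libraries and, only where stated, for the libraries numbered 1 to 3. Relative to control library 3, the depth of these 12 libraries ranged from 0.539 to 1.75.

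Counting error was small beside the spread of 12S within groups. The whole multiples correspond to 7379 to 19526 fragments of 12S per library, with a median of 10382, for which the counting error is 0.716% to 1.16% of the value. Within groups, the 12S levels of the same libraries varied with a coefficient of variation of 15.3% to 48.8%. Fragments made by amplification are not independent molecules, so these errors cover counting only. On the log2(FPKM + 1) scale the SD within groups over all 16 libraries was 0.46 for 12S and 0.56 for 16S. Among the 127 non-mitochondrial features within 0.5 of the mean log2 level of 12S, the median SD was 0.29, and 96.9% varied less than 12S. Among the 53 such features near 16S, the median SD was also 0.29, and 90.6% varied less than 16S. For 16S this rests on the libraries numbered 0. Within libraries 1 to 3 the SD of 16S was 0.32, against a median of 0.28 over 58 features of like level, of which 74.1% varied less, and without BPA library 0 alone it was 0.40. The SD of 12S was 0.48 within libraries 1 to 3, where 97.6% of 127 features of like level varied less.

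The ratio of 16S to 12S does not depend on how libraries are scaled to each other, since both values come from the same library. The 16S level was the higher in 16 of 16 libraries, with a ratio from 1.71 to 8.04 and a median of 2.44. Control libraries 0 to 3 had ratios of 1.76, 1.87, 2.13 and 3.41. BPA libraries 0 to 3 had ratios of 8.04, 1.71, 2.04 and 2.24. Library 0 of the BPA group thus had the highest ratio of the series and library 1 of the same group the lowest. Obese libraries 0 to 3 had ratios of 2.60, 2.19, 2.64 and 3.43, and ObBPA libraries 0 to 3 had ratios of 2.28, 3.82, 3.06 and 3.69. The mean ratio was 2.30 ± 0.761 for control hearts, 3.51 ± 3.03 for BPA, 2.71 ± 0.519 for obese and 3.21 ± 0.706 for ObBPA (SD, n = 4 each). Among libraries 1 to 3 the means were 2.47 ± 0.823, 2.0 ± 0.267, 2.75 ± 0.629 and 3.52 ± 0.408 in the same order (SD, n = 3 each).

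**Figure D3:**
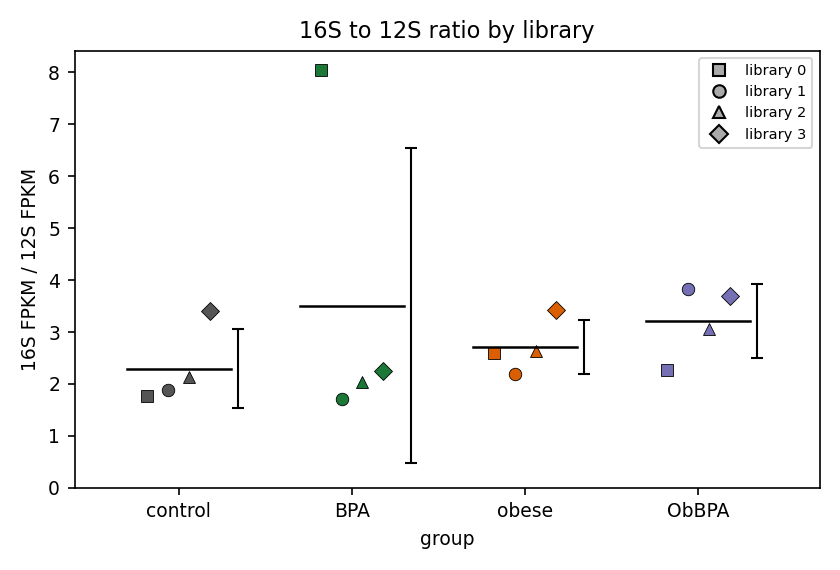
Ratio of the 16S to the 12S level in each library of the 4 groups, with marker shape for the library number, a line for the mean and a bar for ± 1 SD. All ratios but that of BPA library 0 (8.04) lie between 1.71 and 3.82.

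Group differences were tested in a limma fit of log2(FPKM + 1) over all 13251 features that reached 1 FPKM in at least 4 libraries, with p-values adjusted over these features, and the differences below are on that scale. The ratio was compared by a two-sided exact permutation test of the mean log2 ratio, whose smallest possible p is 0.0286 for 4 against 4 libraries, with p-values adjusted over 5 comparisons. In a bulk sample, fewer muscle cells or mitochondria and less rRNA per cell or mitochondrion cannot be told apart. The series' design text calls the replicates biological and does not say how animals and litters relate, so p-values measure the spread between these libraries. The 5 comparisons share groups and are not independent.

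Prenatal BPA under the control diet left neither rRNA different by more than the spread within groups. The 12S difference, BPA minus control, was -0.12 ± 0.308 (SE), with a 95% interval of -0.78 to 0.54 and an adjusted p of 0.999 by limma. The 16S difference was 0.23 ± 0.369 (SE; interval -0.56 to 1.02; adjusted p 0.999 by limma). Without BPA library 0 alone it was -0.18. It was -0.42 among libraries 1 to 3, where the control libraries (1789 to 1914 FPKM) lay above the BPA libraries (1265 to 1668 FPKM), as groups of 3 did without overlap, in either direction, for 9.12% of all features, and its adjusted p was 0.745 by limma. The ratio was 1.27 times as high in BPA as in control hearts by the mean log2 ratio (95% interval 0.673 to 2.40), with an exact permutation p of 0.657 and an adjusted p of 0.821. Among libraries 1 to 3 it was 0.830 times as high (exact permutation p = 0.5). With all 4 libraries a group, the groups overlapped for both rRNAs, and did not for 1.18% of all features. Over all features limma called 0 of 13251 (0%) in this comparison, and 324 had an unadjusted p under 0.05.

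Prenatal BPA in overfed animals gave differences of the same small size. ObBPA minus obese was -0.08 ± 0.308 (SE; 95% interval -0.74 to 0.58) for 12S and 0.15 ± 0.369 (SE; interval -0.64 to 0.94) for 16S, both with an adjusted p of 1 by limma. Within libraries 1 to 3 the differences were -0.07 and 0.31. The groups overlapped for both rRNAs, and did not for 2.02% of all features, or 9.1% within libraries 1 to 3. The ratio was 1.17 times as high in ObBPA hearts (95% interval 0.622 to 2.22; exact permutation p = 0.343, adjusted 0.571). Limma called 0 of 13251 features (0%), with 260 under an unadjusted p of 0.05.

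Overfeeding without prenatal BPA was compared as obese minus control. The 12S difference was -0.33 ± 0.308 (SE; 95% interval -0.99 to 0.33; adjusted p 0.861 by limma) and -0.61 within libraries 1 to 3. The 16S difference was -0.06 ± 0.369 (SE; interval -0.84 to 0.73; adjusted p 0.977 by limma) and -0.43 within libraries 1 to 3. The ratio was 1.21 times as high in obese hearts (95% interval 0.640 to 2.29; exact permutation p = 0.314, adjusted 0.571). Both rRNAs overlapped between the groups, which 1.89% of all features did not, or 12.9% within libraries 1 to 3. Limma called 0 of 13251 features (0%), with 590 under an unadjusted p of 0.05.

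Overfeeding after prenatal BPA was compared as ObBPA minus BPA. The 12S difference was -0.29 ± 0.308 (SE; 95% interval -0.95 to 0.37; adjusted p 1.0 by limma). The 16S difference was -0.13 ± 0.369 (SE; interval -0.92 to 0.66; adjusted p 1.0 by limma), and it was 0.30 within libraries 1 to 3 and 0.28 without BPA library 0 alone. The ratio was 1.12 times as high in ObBPA as in BPA hearts with all libraries (95% interval 0.592 to 2.11; exact permutation p = 0.83, adjusted 0.83). Among libraries 1 to 3 the ObBPA ratios (3.06 to 3.82) all lay above the BPA ratios (1.71 to 2.24), a 1.77-fold difference (95% interval 1.18 to 2.64) with an exact permutation p of 0.1, the smallest that 3 against 3 libraries allow, and an adjusted p of 0.333. For single features, groups of 3 did not overlap in 12.4% of cases in this comparison, and groups of 4 in 1.77%, while those of both rRNAs overlapped. Leaving out BPA library 0 alone, the log2 ratio difference was 0.67 (95% interval 0.11 to 1.22), against 0.16 with it. The ratios of the groups then did not overlap, and the exact permutation p was 0.0571, the smallest that 3 against 4 libraries allow, or 0.286 adjusted over the 5 comparisons. The library left out is the one with the highest ratio of the series. Its removal gave the upper end of the range found on leaving out each library in turn (-0.078 to 0.67). The share of features without overlap was not computed for 3 against 4 libraries. Limma called 0 of 13251 features (0%), with 221 under an unadjusted p of 0.05.

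Animals with both exposures were compared with those with neither as ObBPA minus control. The 12S difference was -0.41 ± 0.308 (SE; 95% interval -1.07 to 0.25; adjusted p 0.941 by limma), the largest in size of the 12S differences, and -0.67 within libraries 1 to 3. The 16S difference was 0.10 ± 0.369 (SE; interval -0.69 to 0.88; adjusted p 0.976 by limma) and -0.12 within libraries 1 to 3. The ratio was 1.42 times as high in ObBPA hearts (95% interval 0.752 to 2.68; exact permutation p = 0.114, adjusted 0.571) and 1.47 times as high within libraries 1 to 3 (exact permutation p = 0.2). Both rRNAs overlapped between the groups, which 1.41% of all features did not, or 10.1% within libraries 1 to 3. Limma called 0 of 13251 features (0%), with 469 under an unadjusted p of 0.05.

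The interaction asks whether the BPA difference was another in overfed than in control-fed animals. It was 0.04 ± 0.435 (SE) for 12S and -0.08 ± 0.521 (SE) for 16S, each with an adjusted p of 0.999 by limma. Their 95% intervals, -0.89 to 0.97 and -1.19 to 1.04, include 1.5-fold changes in either direction. For 16S it was 0.73 within libraries 1 to 3 (adjusted p 0.917 by limma). The log2 ratio had an interaction of -0.11 ± 0.596 (SE), and 0.64 ± 0.357 within libraries 1 to 3, neither with a test. Limma called 0 of 13251 features (0%), with 360 under an unadjusted p of 0.05.

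**Figure D4:**
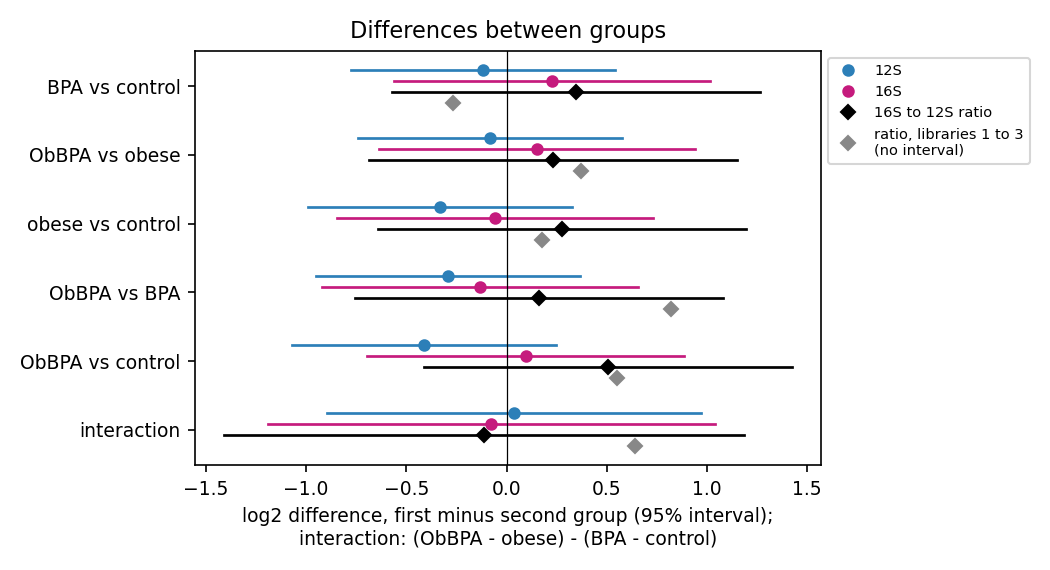
Log2 differences between groups for 12S, 16S and their ratio, with 95% intervals from the spread within groups, and the ratio difference for the libraries numbered 1 to 3 without an interval. Each interval drawn, all from the 16 libraries, includes 0, and the ratio in ObBPA against BPA is 0.16 with all libraries and 0.82 with libraries 1 to 3, whose interval (0.24 to 1.40) is not drawn and lies above 0.

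The other 35 mitochondrial features did not separate the groups either. Of these, 30 passed the level filter, 13 protein-coding and 17 tRNA features, and none passed the threshold in either direction in any of the 6 contrasts, by limma, against 0% of all features. At an unadjusted p under 0.05 by limma there was 1 in BPA against control, 3 in obese against control, 1 in the interaction and 0 in the other contrasts. Over all 13251 features these 3 contrasts had 324, 590 and 360. Their median log2 difference was -0.16 for obese minus control, with 25 of 30 below 0, and -0.17 for ObBPA minus BPA, with 23 of 30 below 0. The medians over all features were -0.01 and 0.01. All features of a library share its FPKM total, so the 30 are not independent observations, and the counts of direction carry no test. In obese against control hearts the median was -0.33 for the tRNA features and -0.13 for the protein-coding features, beside -0.33 for 12S and -0.06 for 16S. In BPA against control hearts the 30 features had a median of 0.04, made up of -0.04 for the protein-coding features, 10 of 13 below 0, and 0.21 for the tRNA features, 14 of 17 above 0. The BPA group includes BPA library 0, which held the highest value of the series in 10 of these 17 tRNA features. The medians for BPA minus control and ObBPA minus BPA were not computed without that library. In ObBPA against obese hearts the median was 0.12, with 0.07 for protein-coding and 0.21 for tRNA features.

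BPA library 0 stood apart in some mitochondrial features and not in others. Its 16S level was 2.70 times the median of the other 15 libraries, and its 12S level was 0.922 times that median. It held the highest value of the series in 10 of 17 tRNA features, in 2 of 13 protein-coding features and in 1 of the 2 rRNAs. The share of all features highest in this library was not computed, so these counts do not show a trait particular to mitochondrial features. The largest excess was in the glutamine tRNA feature (ENSOARG00000000008), with 110829 FPKM against 5509 to 36004 in the other libraries, 9.86 times their median. Next came the valine (ENSOARG00000000003) and isoleucine (ENSOARG00000000007) tRNA features, at 6.88 and 6.26 times their median. The valine feature was one of few fragments, and the fragments of the isoleucine feature were not counted. The isoleucine feature had 5879 FPKM in BPA library 0, against 173 to 4822 FPKM in the other libraries. The glycine (ENSOARG00000000024) and threonine (ENSOARG00000000036) tRNA features were 3.59 and 3.36 times their median. The protein-coding features with a median above that of 16S were 1.01 to 1.40 times theirs.

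Across libraries 12S and 16S followed each other only loosely. Over all 16 libraries the log2 levels had a Pearson r of 0.31 (permutation p = 0.239, adjusted 0.318) and a Spearman rho of 0.40 (permutation p = 0.129, adjusted 0.172). Within libraries 1 to 3 r was 0.60 (permutation p = 0.0418, adjusted 0.0638) and rho 0.47 (permutation p = 0.126, adjusted 0.126). Without BPA library 0 r was 0.58 (permutation p = 0.0256, adjusted 0.0512), and without control library 1 and BPA library 1, the libraries farthest from the median 12S level, it was 0.33. All levels of a library share its FPKM total.

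**Figure D5:**
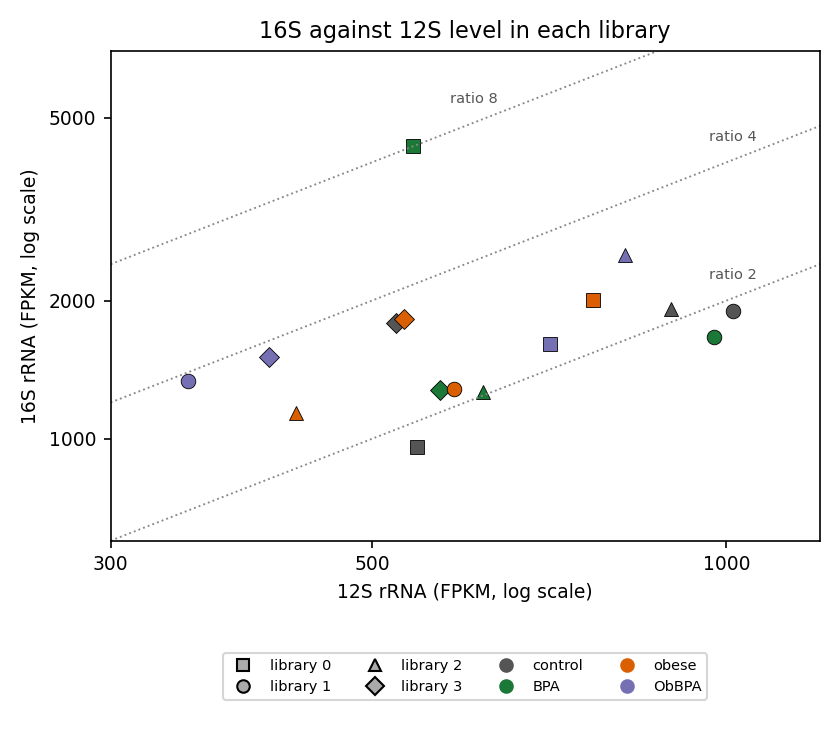
Level of 16S against that of 12S (FPKM, log axes) in the 16 libraries, with colour for the group and shape for the library number. Dotted lines mark equal ratios of 16S to 12S, and BPA library 0 lies at the line of 8 while the others lie between 1.71 and 3.82.

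The 12S level followed the median of the 13 protein-coding features more closely than 16S did, although the difference between these correlations was not tested. In each of the 16 libraries this median was the value of ND6 (ENSOARG00000000033), a complex I subunit and the only messenger RNA of the light strand. For 12S r was 0.66 (permutation p = 0.00622, adjusted 0.0249) and rho 0.59 (permutation p = 0.0172, adjusted 0.0689). It was 0.81 within libraries 1 to 3 (adjusted permutation p = 0.00548), and 0.64 without ObBPA library 3 and obese library 1, the farthest from the median, where the adjusted permutation p was 0.0578. For 16S r was 0.39 (permutation p = 0.129, adjusted 0.257) and rho 0.40 (permutation p = 0.122, adjusted 0.172). Within libraries 1 to 3 the r of 16S was 0.55 (adjusted permutation p = 0.0638). With the 9 abundant protein-coding features taken singly, r on the log2(FPKM + 1) scale ranged from 0.29 to 0.66 for 12S and from 0.33 to 0.63 for 16S, and ND6 gave the highest of these for 12S. The features at the places of ND1, COX1 and ND4 had the higher r with 16S, and the rest of the 9 with 12S. The log2 ratio had an r of -0.19 with the share of summed FPKM taken by the proline tRNA feature ENSOARG00000000037, the most abundant of the table (permutation p = 0.481, adjusted 0.481; rho -0.26, permutation p = 0.324, adjusted 0.324). Within libraries 1 to 3 that r was -0.57 (adjusted permutation p = 0.0638). These were the 4 relations computed.

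Features most like each rRNA over the 16 libraries were ranked by Pearson r of log2(FPKM + 1). For 12S the 5 closest of 13250 features lay outside the mitochondrial genome. They were ENSOARG00000000890 (r = 0.86), ENSOARG00000006701 (0.85), ENSOARG00000010603 (0.85), ENSOARG00000019234 (0.81) and ENSOARG00000001792 (0.81), for which no names were at hand. ENSOARG00000006701 and ENSOARG00000010603 had mean levels of only 1.73 and 1.29 FPKM, near the filter of 1 FPKM. The closest mitochondrial feature was the glutamate tRNA, ENSOARG00000000034, at rank 38 (r = 0.69), and 16S ranked 2213. For 16S the closest was the glycine tRNA feature, ENSOARG00000000024 (r = 0.90), followed at rank 3 and 4 by the arginine (ENSOARG00000000026, 0.87) and threonine (ENSOARG00000000036, 0.81) tRNA features. The closest outside the mitochondrial genome were ENSOARG00000025767 (0.88), ENSOARG00000001497 (0.80), ENSOARG00000021052 (0.78), ENSOARG00000000529 (0.77) and ENSOARG00000003354 (0.77). Leaving out BPA library 0, their r with 16S was 0.87, 0.64, 0.66, 0.75 and 0.82 in the same order. ENSOARG00000001497 had a mean level of only 1.84 FPKM. Without BPA library 0 the r of 16S was 0.81 with the glycine, 0.74 with the arginine and 0.65 with the threonine tRNA feature. For 12S the r with the same 3 features was 0.44, 0.41 and 0.44 over all libraries and 0.72, 0.67 and 0.67 without BPA library 0, so that both rRNAs then had similar values. These correlations describe the most similar of many features, and carry no test.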

How the data were processed

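RNA of the myocardium of 16 sheep was sequenced after poly-A selection with the TruSeq kit, per the labels' protocols. The deposited values were FPKM computed by the authors, fragments scaled by transcript length and library size, in 16 columns. The submitters' processing notes name Oar_v3.1 as the build, Cuffdiff 2.1.1 and Cufflinks, Bowtie2 2.1.0 and TopHat2 2.0.9, and FastQC. Tool settings and any masking of rRNA: not given in the sources used here.

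Groups came from the sample titles. Features with FPKM of at least 1 in at least 4 libraries entered a limma 3.58.1 fit (R 4.3.3, trended prior, 12 residual and 2.36 prior degrees of freedom) of the 4 group means on log2(FPKM + 1), which understates changes of low features. P-values were two-sided and adjusted by Benjamini-Hochberg at a false discovery rate of 0.05. The fit was tested on simulated data. Ratios were compared by exact permutation and correlations by 100000 permutations (scipy 1.17.1). The 95% intervals of ratios use the pooled SD of the 4 groups. Fragment steps were searched up to 20000 fragments in control library 1 and accepted within 0.1. Alternatives changed the pseudocount, filter, scaling, prior, weights, libraries and blocking by library number. Removing BPA library 0 from correlations, and the subsets used for the spread within groups, were chosen after seeing the data. Features named as most alike were the 5 of highest r outside the mitochondrial IDs. The members and lists were chosen with earlier results of these data known. Lists of nuclear genes and of cell types, given by symbol, could not be matched to the IDs, so the tissue label was not checked against markers.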

Additional observations from a re-analysis of the deposited data

Results flagged for a closer look

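In 12 sets of 4 libraries, 1 per group for 12S, 16S and their ratio, 3 values lay far from the other 3 libraries of their group, by a gap over 0.83 of the group's range. The 16S level of BPA library 0, 4350.2 FPKM, was set apart by 0.869 of the range, and the ratio of 16S to 12S in the same library, 8.04, by 0.916. These share the same 16S value. The 16S level of control library 0, 961 FPKM, lay below the other control libraries by 0.869 of the range. About 1 in 20 such groups would be flagged by chance if values were independent and normally distributed. Both libraries are numbered 0, the set in which no common fragment step was found, and the part of that in these values was not tested.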

How the results depend on the processing

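By limma, neither rRNA passed the threshold in any of the 6 contrasts under any alternative run. For the ratio, alternatives with 3 libraries in a group could not reach p = 0.05, so their p-values say nothing of its stability, and ObBPA against BPA gave the smallest possible p within libraries 1 to 3 (exact permutation p = 0.1) and without BPA library 0 (0.0571). Some directions changed, and the cause was not tested. The reversed differences were not all near 0, as the 16S values with libraries 1 to 3 alone show. With library weights, the 12S difference was 0.25 for BPA minus control, 0.0082 for ObBPA minus obese and -0.24 for the interaction, and the 16S difference was -0.16 for BPA minus control, 0.15 for ObBPA minus BPA, -0.0075 for ObBPA minus control and 0.46 for the interaction. With libraries 1 to 3 alone, the 16S difference was -0.42 for BPA minus control, 0.30 for ObBPA minus BPA, -0.12 for ObBPA minus control and 0.73 for the interaction, and the log2 ratio difference was -0.27 for BPA minus control and 0.64 for the interaction. Scaled to the sum of non-mitochondrial features, 12S had an interaction of -0.10 and 16S an obese minus control difference of 0.091, while the median of all features moved from -0.0098 to 0.11 in that contrast. Relative to mitochondrial messenger RNAs, 12S was 0.026 for ObBPA minus obese. By the ratio of group means, the log2 ratio for ObBPA minus BPA was -0.054.

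Leaving out each library in turn, the 12S difference ranged from -0.31 to 0.050 (BPA minus control), -0.28 to 0.13 (ObBPA minus obese), -0.48 to -0.16 (obese minus control), -0.50 to -0.09 (ObBPA minus BPA), -0.62 to -0.20 (ObBPA minus control) and -0.17 to 0.24 (interaction). In the same order the 16S difference ranged from -0.18 to 0.41, -0.039 to 0.28, -0.30 to 0.084, -0.32 to 0.28, -0.14 to 0.21 and -0.27 to 0.33, and the log2 ratio difference from -0.16 to 0.59, 0.14 to 0.39, 0.16 to 0.48, -0.078 to 0.67, 0.40 to 0.72 and -0.35 to 0.39. With 3 libraries against 4, the ratio's exact permutation p cannot go below 0.0571.

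The count of all features called by limma was 0 in each contrast. It was 1 for BPA against control, 6 for obese against control and 1 for ObBPA against control with library weights, 1, 4, 2 and 1 with only the groups compared fitted (ObBPA against obese, obese against control, ObBPA against BPA, ObBPA against control), and 1 without the filter for ObBPA against control. Leaving out 1 library gave 0 to 1 for BPA against control (1 without ObBPA library 1), ObBPA against obese (1 without BPA library 1) and obese against control (1 without control library 3 or BPA library 1), and 0 in the others. The r of 12S with the median messenger RNA was 0.64 without the farthest libraries, its adjusted permutation p then 0.0578.

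Whether the library numbers pair animals could not be settled. Deviations of same-numbered libraries from their group means correlated at -0.084 to 0.16, and at 0.047 to 0.16 among the libraries numbered 0. Of 16 libraries, 7 were closest to one of their own number. Each was compared with all libraries of the other groups, most of which had another number. How many would match by chance was not computed. Each group holds each number once, so a replicate block by number cannot change the differences between groups, only their errors. With this block limma called 0 features in each contrast. The count of features with an unadjusted p under 0.05 by limma rose in every contrast. It went from 324 to 498 for BPA against control and from 590 to 927 for obese against control.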
